A study of Mus musculus with 6 samples.

Results

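Prss27 and 8 related genes were followed in MPC and MPC-PTX, a pair of mouse gastric adenocarcinoma cell lines. They encode epithelial membrane-anchored and related serine proteases and their Kunitz-type inhibitors. The 9 members were Prss27, Prss8, Prss22, St14, Tmprss2, Tmprss4 and Hpn, which encode proteases, and Spint1 and Spint2, which encode inhibitors. They were 9 of the 21959 genes in the count table, and all 9 were among the 11795 genes with enough reads to be tested. The group was chosen by the counts of Prss27, which were lower in MPC-PTX, so the fold change of Prss27 is given as a description without a test. The other 8 were taken by family, not by their values, although earlier results of the same comparison were known.

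The study compared the PTX-resistant line with the line it came from, with 3 RNA-seq libraries of each. MPC, which the study also calls MTC, was grown from gastric organoids of a C57BL/6J mouse homozygous for floxed Trp53 and Cdh1, with a Cre recombinase (CreER) driven from Mist1. Cre was switched on in the organoids, which were passed through a subcutaneous tumour in a nude mouse, and the line was expanded from 1 clone. MPC-PTX, also called MTC-R, was made from it by over 30 cycles of PTX (paclitaxel, a drug that stabilises microtubules) and was again selected as a clone. Both lines carry the genotype CDH1-/-;Trp53-/- and were kept in RPMI medium with serum; the MPC libraries are labelled control. Since each line is 1 clone, the drug exposure and the choice of the clone cannot be told apart. Whether replicates came from separate cultures is not in the labels, and p-values then measure only the spread between these libraries. That spread was unequal, by a chi-square per gene that grows with differences beyond counting error. It was 1.84 to 3.36 between pairs of MPC-PTX libraries and 14.9 to 60.68 between pairs of MPC libraries. The cause was not tested.

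The libraries held 16574580 to 23148182 counts. Cdh1 reads were present in every library (2217 to 3068 counts) (log2 fold change -0.01, edgeR adjusted p = 0.864), and Trp53 had 63 to 142 counts, so gene counts did not show the deleted exons. The MPC libraries differed from each other with the GC content of the genes: deviations from the MPC mean had a Spearman rho with GC content of 0.49, 0.36 and -0.61 in replicates 1 to 3 over 11776 genes, and with transcript length of -0.44, -0.20 and 0.48. Replicate 3 had the opposite sign to the others. The deviations of a gene over the 3 libraries sum to 0, so opposite signs are built into this measure and do not single out replicate 3. The chi-square per gene was 60.68 and 32.16 for MPC replicate 3 with replicates 1 and 2, and 14.9 between those 2. The members have GC-rich transcripts (51.3% to 59.6%, against a median of 50.2% for tested genes). Values without replicate 3 are given below. Of 11 epithelial markers all were measured at testable levels in both lines, whereas of 12 gastric mucosa markers in the table only Ctse could be tested, and Tff1, Tff2, Gkn2 and Pgc had 0 counts in all 6 libraries.

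Membrane serine proteases sit on the surface of epithelial cells, held by a glycolipid (GPI) anchor or by a transmembrane segment near the N-terminus (the type II transmembrane serine proteases). They are made as inactive zymogens and cut one another, growth factor precursors, receptors and sodium channel subunits. Matriptase, the product of St14, activates prostasin, the product of Prss8, and the Kunitz inhibitors HAI-1 (Spint1) and HAI-2 (Spint2) hold this activity in check. The proteases followed here also include related ones, and the anchoring of each was not examined.

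Of the 8 members other than Prss27, 7 fell in MPC-PTX (quasi-likelihood test of edgeR, Benjamini-Hochberg adjusted p under 0.05 over the whole table). By the same call 15.6% of all tested genes were lower and 14.1% higher, 29.7% in either direction. No member rose (0 by edgeR, 0 at an unadjusted p below 0.05 and 0 by DESeq2), and DESeq2 also called 7 lower. With a log2 fold change beyond -1 as well, 3 were lower (Prss22, Tmprss2 and Tmprss4), a call made for 4.2% of all tested genes, with 3.54% higher by as much. For the 8 genes the median was -0.94 on the log2 scale, beside 0.04 over all tested genes. The MPC and MPC-PTX libraries did not overlap in 7 of the 8, all with MPC above, which held for 22.7% of tested genes, and for 24.2% with MPC-PTX above. Nothing is read from these counts against their backgrounds, because the group was chosen in this comparison. Without MPC replicate 3, the count of lower members was again 7, with log2 fold changes of -3.48 to -0.37. It was also 7 after a correction for GC content and transcript length. Both settings called more genes over the whole table. Without MPC replicate 3, 3227 of 11896 tested genes were lower, and after the correction 2685 of 11795, against 1841 in the main fit. Leaving out other libraries changed the count of lower members only by calls of Prss8, Spint1 and Spint2, given with those genes below. In cultures of this kind, fewer cells that make a transcript and less transcript per cell cannot be told apart.

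**Figure D1:**
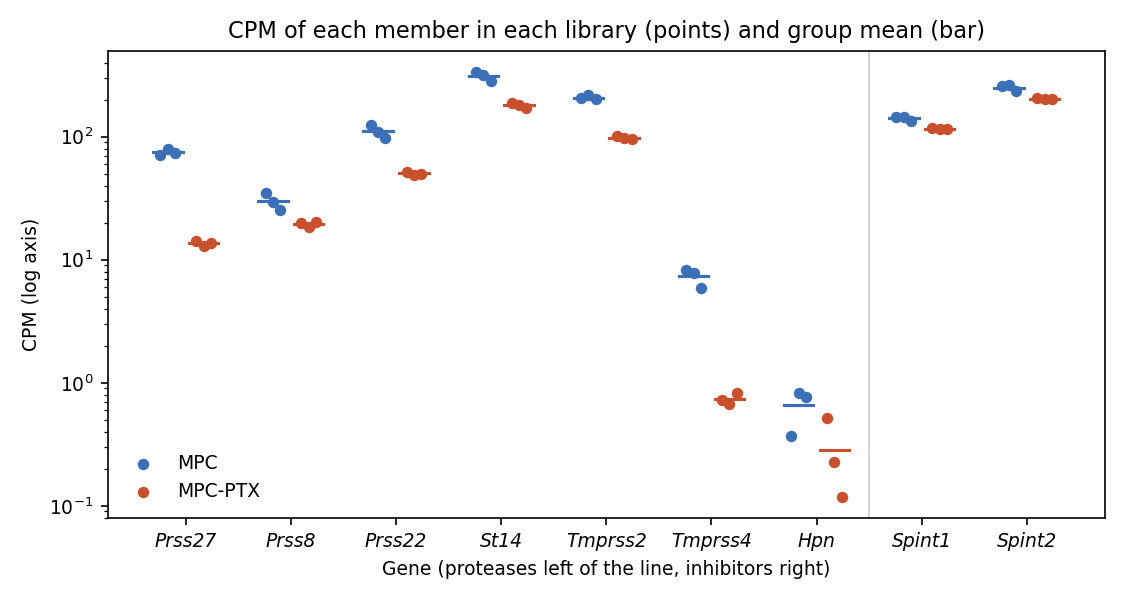
CPM (log axis) of the 9 members in each library, with points for libraries and bars for the mean of 3, proteases left of the line and inhibitors right of it. All MPC points lie above all MPC-PTX points for every member except Hpn, and the gap is widest for Tmprss4 and Prss27.

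Sequence upstream of the start site is shown for members that differed much or little between the lines, as a description of where transcription of each begins. The RefSeq promoter table (GRCm38.p6) held 5 of the 9 members (Prss27, Tmprss2, Spint1, Spint2 and Hpn); Prss8, Prss22, St14 and Tmprss4 had no entry. Capitals mark the E-box CAGGTG and the GC box GGGCGG on either strand. The grainyhead-like motif AACNGGTT was searched too. The motifs were chosen with the letters in view. Prss27 (chr17:24037993-24038143, plus strand) is shown up to the base before its annotated first exon, and Tmprss2 (chr16:97611196-97611445, minus strand), Spint1 (chr2:119237110-119237359, plus strand) and Spint2 (chr7:29281978-29282227, minus strand) over 250 bases.

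Prss27: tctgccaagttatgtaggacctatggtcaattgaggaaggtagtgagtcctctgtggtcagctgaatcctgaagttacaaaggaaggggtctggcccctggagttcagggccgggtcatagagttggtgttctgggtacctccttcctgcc

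Tmprss2: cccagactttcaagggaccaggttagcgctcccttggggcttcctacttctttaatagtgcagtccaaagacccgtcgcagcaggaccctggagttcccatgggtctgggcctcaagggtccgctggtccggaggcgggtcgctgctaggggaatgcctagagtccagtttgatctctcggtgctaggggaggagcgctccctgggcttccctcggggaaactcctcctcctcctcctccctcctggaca

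Spint1: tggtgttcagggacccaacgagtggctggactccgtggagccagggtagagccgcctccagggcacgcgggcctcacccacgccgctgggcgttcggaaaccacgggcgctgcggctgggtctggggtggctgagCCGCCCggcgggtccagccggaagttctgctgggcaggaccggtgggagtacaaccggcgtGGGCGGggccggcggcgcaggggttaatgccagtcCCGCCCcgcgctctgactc

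Spint2: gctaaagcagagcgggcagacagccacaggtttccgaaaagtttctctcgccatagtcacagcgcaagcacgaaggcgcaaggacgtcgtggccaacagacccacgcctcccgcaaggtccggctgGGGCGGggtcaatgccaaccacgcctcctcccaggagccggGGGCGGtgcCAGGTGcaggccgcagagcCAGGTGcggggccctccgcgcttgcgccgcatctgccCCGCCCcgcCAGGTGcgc

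These stretches ranged widely in base composition. The stretch of Spint1 had 72.8% GC, that of Spint2 69.6% and that of Tmprss2 61.6%, all above the upper quartile of 61.2% over 32817 promoters. That of Prss27 had 53.0% over the 151 bases printed. It is not compared with the promoter median of 52.4%, which was taken over 250 bases. GC boxes occurred 3 times each in Spint1 and Spint2, 2 times in Hpn and at 0 places in Tmprss2, with 32.7% of all promoters holding at least 1 over 250 bases. Prss27 had 1, in the part of the RefSeq window that the GENCODE annotation counts as exon and that is not printed. Hpn has a further promoter entry, which held 0 matches to any of the motifs. Spint2 held 3 E-boxes and Hpn 2 in its other entry, and the others 0 (17.2% of promoters). The grainyhead-like letters were found in none of the 5 (1.8% of promoters). These are matches of letters, not sites shown to be used.

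Prss27 encodes marapsin, a tryptase-like serine protease made by squamous and other epithelia (ENSMUSG00000050762, GRCm38 chr17:24038144-24045954, plus strand). In CPM, read counts scaled to the size of each library, it had 71.5, 78.8 and 73.7 CPM in the 3 MPC libraries and 14.1, 12.9 and 13.8 CPM in the 3 MPC-PTX libraries. The MPC libraries were all far above the MPC-PTX libraries, and the libraries of each line lay close together. The means were 74.7 ± 3.73 and 13.6 ± 0.616 CPM (SD, n = 3 each), 5.48-fold lower in MPC-PTX. The log2 fold change was -2.45 (SE 0.08), the value by which the group was picked, and it ranged from -2.52 to -2.40 over all alternatives tried. In MPC, Prss27 stood at the 71.8th percentile of tested genes by CPM, and its fold change was 177th from the lowest of 11795. It remained measured in MPC-PTX, at 232 to 331 counts per library.

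Prss22 (tryptase epsilon, a protease of airway and other epithelia that can activate pro-urokinase; ENSMUSG00000045027) lies 40.0 kb from Prss27 on the same chromosome (GRCm38 chr17:23993534-23998100, minus strand) and was its nearest tested neighbour on that side. It had 124, 108 and 98.4 CPM in MPC and 52.0, 49.2 and 49.8 CPM in MPC-PTX. No library of MPC-PTX reached the level of any MPC library, and the MPC libraries were the more spread of the 2 groups. Prss22 fell 2.19-fold, from 110 ± 13.0 to 50.3 ± 1.5 CPM (log2 fold change -1.13, SE 0.10, edgeR adjusted p = 0.000242). On the other side of Prss27, Kctd5, 1.8 kb away, had 102 ± 7.80 CPM in MPC and 88.8 ± 2.12 CPM in MPC-PTX (log2 fold change -0.19, SE 0.08, edgeR adjusted p = 0.096). Of the 31 other tested genes within 500 kb of Prss27, 4 were lower and 1 was higher, with a median log2 fold change of -0.08. Over all tested genes, 15.6% were called lower and 14.1% higher. The members lie on 5 chromosomes, and around the other 7 the neighbouring tested genes had medians of -0.27 to 0.17.

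Prss8 encodes prostasin, a GPI-anchored protease that acts with matriptase in epithelial barriers and on the epithelial sodium channel (ENSMUSG00000030800, GRCm38 chr7:127925716-127930104, minus strand). Its level was 34.8, 29.5 and 25.3 CPM in MPC and 19.9, 18.4 and 20.1 CPM in MPC-PTX. The lowest MPC library, replicate 3, was still above the highest MPC-PTX library. Prss8 fell 1.53-fold, from 29.8 ± 4.75 to 19.5 ± 0.913 CPM (log2 fold change -0.61, SE 0.13, edgeR adjusted p = 0.0106). Without MPC replicate 3 the log2 fold change was -0.77, and without MPC-PTX replicate 2 the edgeR adjusted p was 0.0562. Prss8 shares 122 exon bases with Kat8 on the opposite strand, and 4.0% of its 50-base stretches, so some of its reads could belong to Kat8 if strand was not used in counting. Kat8 itself had 233 to 245 counts in MPC and 232 to 363 in MPC-PTX (log2 fold change 0.24, edgeR adjusted p = 0.132).

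St14 encodes matriptase, the type II transmembrane protease at the head of this cascade (ENSMUSG00000031995, GRCm38 chr9:31089402-31131853, minus strand). It had 335, 315 and 283 CPM in MPC and 186, 181 and 172 CPM in MPC-PTX. Every MPC library lay well above every MPC-PTX library. St14 fell 1.73-fold, from 311 ± 26.4 to 179 ± 7.48 CPM (log2 fold change -0.79, SE 0.08, edgeR adjusted p = 0.000438).

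Tmprss2, a type II transmembrane protease known for androgen control in prostate and for cutting viral envelope proteins (ENSMUSG00000000385, GRCm38 chr16:97564682-97611195, minus strand), had 205, 217 and 201 CPM in MPC and 101, 96.7 and 94.9 CPM in MPC-PTX. The spread within each line was small next to the gap between them. Tmprss2 fell 2.13-fold, from 208 ± 8.32 to 97.6 ± 3.23 CPM (log2 fold change -1.09, SE 0.06, edgeR adjusted p = 4.28e-05).

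Tmprss4, another transmembrane protease, described from pancreatic and other carcinomas (ENSMUSG00000032091, GRCm38 chr9:45172726-45204092, minus strand), changed the most of the 9. It had 156, 150 and 123 counts (8.29, 7.73 and 5.91 CPM) in MPC and 17, 15 and 14 counts (0.726, 0.676 and 0.832 CPM) in MPC-PTX. All MPC-PTX libraries were below 1 CPM, and all MPC libraries were far above. The means of 7.31 ± 1.24 and 0.745 ± 0.0794 CPM were 9.81-fold apart (log2 fold change -3.29, SE 0.21, edgeR adjusted p = 7.08e-05). Tmprss4 shares 412 exon bases with the antisense gene Gm17099, and 14.2% of its 50-base stretches. No counts for Gm17099 were found, and some reads of Tmprss4 could belong to Gm17099 if strand was not used in counting. Apart from Prss8 and Tmprss4, the members shared 0 of their 50-base stretches with another gene.

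Hpn encodes hepsin, a transmembrane protease best known from liver (ENSMUSG00000001249, GRCm38 chr7:31098725-31115290, minus strand), and was close to the limit of detection. It had 7, 16 and 16 counts in MPC and 12, 5 and 2 counts in MPC-PTX. The groups overlapped, and the difference did not pass the test (log2 fold change -1.11, SE 0.55, edgeR adjusted p = 0.169). Summed over libraries, Hpn had 39 counts in MPC and 19 in MPC-PTX, a ratio per total count of 2.11 (exact 95% interval 1.19 to 3.87, counting error only).

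The inhibitors were high in both lines and differed little. Spint1 (HAI-1, a transmembrane inhibitor of matriptase and hepsin; ENSMUSG00000027315, GRCm38 chr2:119237362-119249527, plus strand) had 146, 145 and 134 CPM in MPC and 117, 116 and 116 CPM in MPC-PTX. Spint2 (HAI-2, an inhibitor of matriptase and prostasin; ENSMUSG00000074227, GRCm38 chr7:29256323-29281912, minus strand) had 257, 261 and 233 CPM in MPC and 205, 203 and 202 CPM in MPC-PTX. For both genes MPC replicate 3 was the lowest MPC library and was still above all MPC-PTX libraries. Spint1 fell 1.22-fold (log2 fold change -0.28, SE 0.06, edgeR adjusted p = 0.0123) and Spint2 fell 1.23-fold (log2 fold change -0.30, SE 0.06, edgeR adjusted p = 0.0114). These calls depended on which libraries were in the fit. Without MPC replicate 2 or MPC-PTX replicate 1, 2 or 3 the edgeR adjusted p was 0.0565, 0.0645, 0.0728 and 0.067 for Spint1, and 0.0529, 0.0576, 0.0639 and 0.0635 for Spint2. Both stayed called without MPC replicate 1 (edgeR adjusted p = 0.0141 for each) and without MPC replicate 3, where the log2 fold changes were -0.37 and -0.40.

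**Figure D2:**
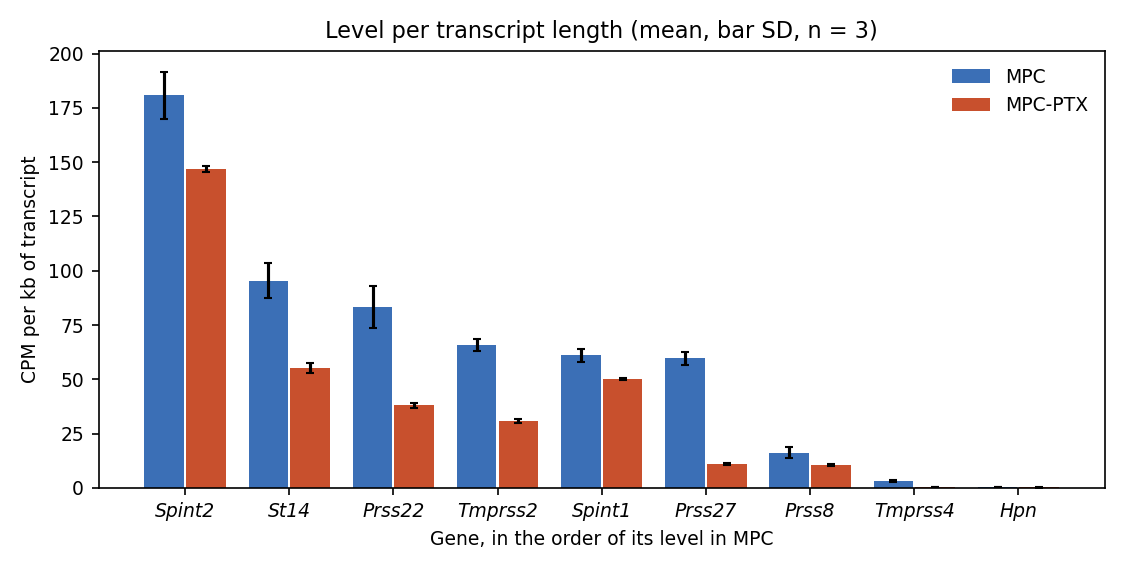
Level per transcript length (CPM per kb of transcript, bars start at 0) of each member as mean of 3 libraries with SD, in the order of the MPC level. Spint2 is highest in both lines, at 181 in MPC and 147 in MPC-PTX, and Prss27 drops from 59.6 to 10.9.

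Compared per kb of transcript, so that genes of different length can be set side by side, the order of the members differed between the lines. In MPC, Spint2 was highest at 181 ± 10.9 CPM per kb, followed by St14 at 95.5 ± 8.09 and Prss22 at 83.3 ± 9.83, whose libraries overlapped with those of St14. Tmprss2 had 65.7 ± 2.63, Spint1 61.0 ± 2.82 and Prss27 59.6 ± 2.97 CPM per kb, the last 2 overlapping. Prss8 (16.1 ± 2.56), Tmprss4 (3.20 ± 0.545) and Hpn (0.358 ± 0.135) were the 3 lowest. In MPC-PTX, Spint2 (147 ± 1.30) and St14 (55.1 ± 2.30) stayed at the top, Spint1 came next at 50.1 ± 0.361, above Prss22 (38.02 ± 1.13) and Tmprss2 (30.9 ± 1.02). Prss27 was down at 10.9 ± 0.492 CPM per kb, where its libraries overlapped with those of Prss8 (10.5 ± 0.493). Tmprss4 and Hpn were again lowest, at 0.326 ± 0.0348 and 0.156 ± 0.111.

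The summed level of the 7 proteases was 324 ± 21.2 CPM per kb in MPC and 146 ± 4.58 in MPC-PTX, while that of the 2 inhibitors was 242 ± 13.7 and 197 ± 1.59. Prss27 made up 16.7%, 19.1% and 19.6% of the protease sum in MPC and 7.47%, 7.18% and 7.72% in MPC-PTX. St14 went from 29.5% ± 0.619 to 37.8% ± 0.808 of the sum, and Prss22 was near 26% in both lines (25.7% and 26.1%). Per kb both genes fell, St14 from 95.5 to 55.1 CPM and Prss22 from 83.3 to 38.02 CPM. The sum includes Prss27, by whose fall the group was picked. The sum and the shares of the other proteases thus depend in part on that fall, and nothing is read from them. The sums and shares follow from the values above and were not tested.

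The ratio of a protease to its inhibitor within a library does not depend on sequencing depth. The log2 ratio of St14 to Spint1, per kb, was 0.72, 0.63 and 0.59 in MPC and 0.18, 0.15 and 0.07 in MPC-PTX. All MPC libraries were above all MPC-PTX libraries, with 1.504 to 1.64 units of St14 for each unit of Spint1 in MPC and 1.05 to 1.13 in MPC-PTX. The difference of the means was -0.51 on the log2 scale, and the exact two-sided permutation test over libraries gave p = 0.1, the smallest that 3 against 3 libraries allow. For Prss8 to Spint2 the log2 ratio was -3.31, -3.56 and -3.63 in MPC and -3.79, -3.88 and -3.75 in MPC-PTX. The groups again did not overlap, and the difference was -0.31 (exact two-sided permutation p = 0.1, again the smallest possible). Without MPC replicate 3 the differences were -0.54 and -0.37, without a test. Neither ratio could pass 0.05 in this test, whose p-values were at their floor.

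**Figure D3:**
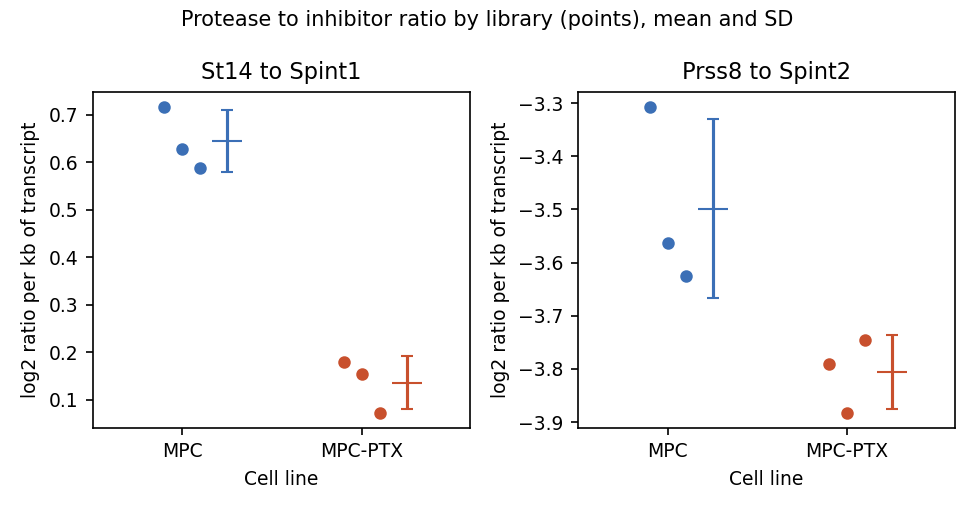
Log2 ratio per kb of transcript of St14 to Spint1 (left) and Prss8 to Spint2 (right) in each library (points), with the mean and SD of 3 libraries beside them. MPC lies above MPC-PTX in both panels, between 0.59 and 0.72 against 0.07 and 0.18 on the left.

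Other genes of these families were mostly not measurable in either line. Of 15 other type II transmembrane serine proteases in the table, 2 were tested, 6 had 0 counts in all libraries and no untested one had more than 12 counts in a library. Tmprss6 (matriptase-2, known for iron control in liver) had 74, 135 and 120 counts in MPC and 1, 1 and 3 in MPC-PTX, so it was at the edge of detection in MPC-PTX. Per total count, the MPC libraries together held 67.8 times as many Tmprss6 reads (exact 95% interval 28.7 to 210, counting error only; edgeR adjusted p = 0.000153). Tmprss11e had 30.3, 42.6 and 77.6 CPM in MPC and 30.5, 37.2 and 39.8 CPM in MPC-PTX, with overlap between the groups (log2 fold change -0.49, edgeR adjusted p = 0.304). Its log2 fold change was -0.09 without MPC replicate 3, and -0.61 with a call (edgeR adjusted p = 0.0171) after correction for GC content and length. Of 15 other tryptase-like and GPI-anchored proteases, 10 had 0 counts throughout and the 2 tested ones, Prss32 and Prss36, were not called (edgeR adjusted p = 0.856 and 0.456). Of 13 other Kunitz-domain inhibitors 3 were tested. App, the amyloid precursor protein with a Kunitz domain in some isoforms, was the 1 called lower (log2 fold change -0.35, SE 0.08, edgeR adjusted p = 0.0156), and leaving out MPC replicate 2 or any MPC-PTX library gave 0.0656 to 0.0749. After the GC and length correction its log2 fold change was -0.57 (edgeR adjusted p = 0.00125). Its relative Aplp2 had a log2 fold change of -0.24 (edgeR adjusted p = 0.0734), which was called without MPC replicate 1 or 3 (0.00302 and 0.0267) and after the GC and length correction (0.0128).

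Substrates and receptors of these proteases were tested for 11 of 15 genes listed, and 9 of the 11 were lower in MPC-PTX and 0 higher. By the same call, 15.6% of all tested genes were lower and 14.1% higher. The median log2 fold change of the 11 was -0.80, beside 0.04 over all tested genes. Nothing is read from this count, as the list was chosen with earlier results known. The ligands Hgf and Mst1 and the channel subunits Scnn1b and Scnn1g were too low to test (at most 14 counts in a library). Among receptors, Mst1r, which encodes the RON receptor for macrophage-stimulating protein, had 88, 75 and 113 counts in MPC and 1, 5 and 11 in MPC-PTX. The groups did not overlap (log2 fold change -4.04, SE 0.51, edgeR adjusted p = 0.00141). Without MPC-PTX replicate 3 the log2 fold change was -5.08, and without MPC-PTX replicate 1 it was -3.46. By contrast Met, the receptor of hepatocyte growth factor, had a log2 fold change of -0.03 (edgeR adjusted p = 0.913), and of -0.17 after the GC and length correction (edgeR adjusted p = 0.0461). F2rl1, which encodes the protease-activated receptor PAR2, fell from 99.99 ± 1.38 to 55.0 ± 1.10 CPM (log2 fold change -0.86, edgeR adjusted p = 0.000116).

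Plau, the urokinase that cleaves plasminogen, had 179, 124 and 110 CPM in MPC and 50.6, 44.8 and 45.9 CPM in MPC-PTX. The lowest MPC library was more than the highest MPC-PTX library by a wide margin (log2 fold change -1.55, SE 0.18, edgeR adjusted p = 0.00131). The urokinase receptor Plaur overlapped between the lines (log2 fold change -0.14, edgeR adjusted p = 0.447), but without MPC replicate 3 it was called lower (log2 fold change -0.31, edgeR adjusted p = 0.00929). Hgfac, the activator of hepatocyte growth factor and a target of HAI-1, fell from 48.5 ± 1.58 to 22.8 ± 1.75 CPM (log2 fold change -1.09, edgeR adjusted p = 0.000181). Flg, the skin protein filaggrin, had only 18, 26 and 49 counts in MPC and 18, 7 and 6 in MPC-PTX (log2 fold change -1.65, edgeR adjusted p = 0.0374). The Flg call was lost without MPC replicate 2 or MPC-PTX replicate 2 or 3 (edgeR adjusted p = 0.0832, 0.132 and 0.122). The remaining genes called were Scnn1a, a subunit of the epithelial sodium channel (log2 fold change -0.80), Epcam (-0.59) and Cldn7 (-0.50), an adhesion molecule and a claudin linked to matriptase cleavage, and Cdcp1, a surface protein cut by serine proteases (-0.45).

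**Figure D4:**
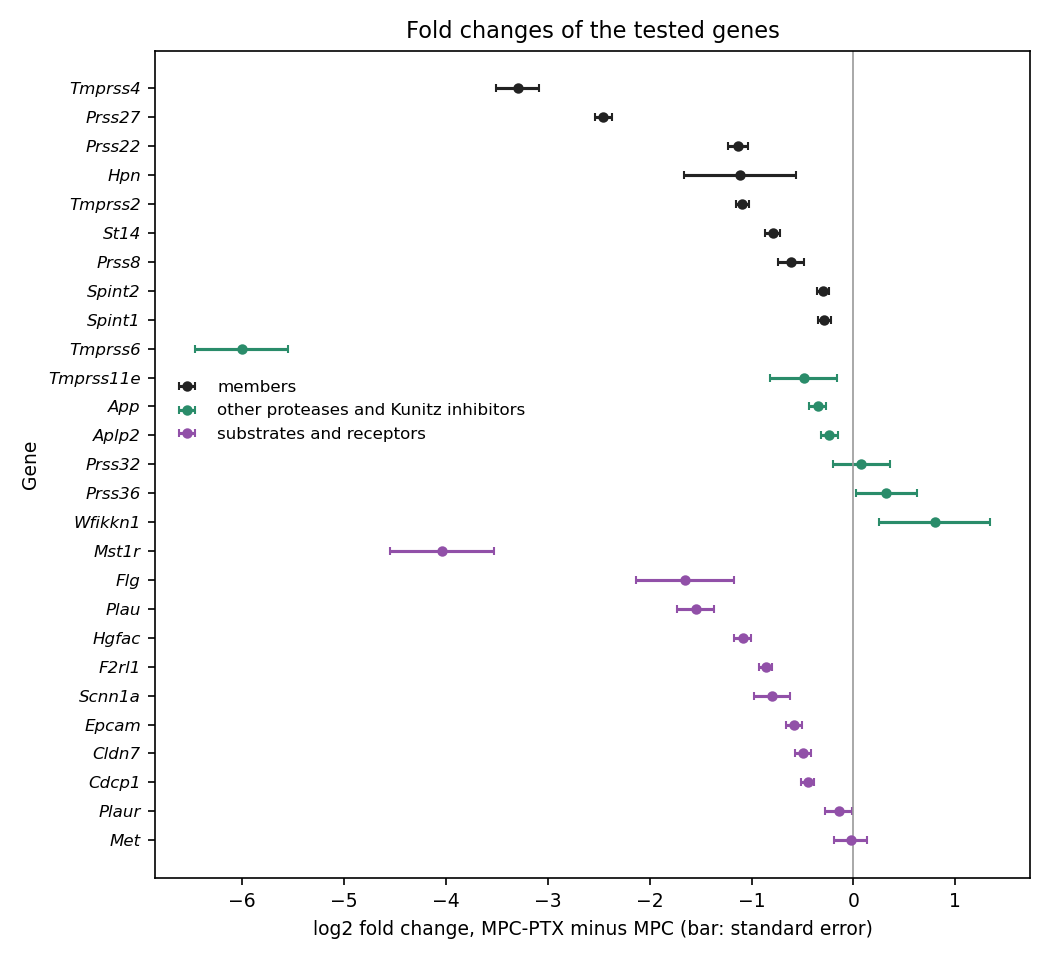
Log2 fold change, MPC-PTX minus MPC, with its standard error for the 9 members, for other proteases and Kunitz inhibitors and for substrates and receptors. All members lie left of 0, from -3.29 for Tmprss4 to -0.28 for Spint1; the fitted value of Tmprss6 rests on 5 reads in MPC-PTX.

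The general epithelial markers moved as well. Of the 11, 8 were lower in MPC-PTX, 0 were higher and 3 (Cdh1, Esrp2 and Grhl2) were not called, with a median log2 fold change of -0.67. Of all tested genes, 15.6% were called lower and 14.1% higher, and nothing is read from the count of this marker list. Epcam and Cldn7 are in this list as well as among the substrates. Grhl2 was called lower without MPC replicate 3 (log2 fold change -0.17, edgeR adjusted p = 0.0322) and after the GC and length correction (-0.22, edgeR adjusted p = 0.00961). Their summed level was 9860 to 11330 CPM in MPC and 6043 to 6228 CPM in MPC-PTX, and none was at 0. Keratin genes made up most of that sum, among them Krt19 (3020 ± 257 against 1538 ± 18.8 CPM) and Krt8 (1935 ± 177 against 952.6 ± 18.9 CPM). Cldn4, a tight junction claudin, fell from 671.6 ± 119 to 306.3 ± 10.8 CPM (log2 fold change -1.13, edgeR adjusted p = 0.000717). The splicing factor gene Esrp1 fell from 150.3 ± 7.16 to 79.6 ± 1.18 CPM (log2 fold change -0.92, edgeR adjusted p = 0.000104). Its paralog Esrp2 had 64.3 ± 2.30 and 65.2 ± 1.29 CPM. Ctse, the aspartic protease cathepsin E and the 1 gastric marker tested, had 4387, 6009 and 5850 counts in MPC and 30, 29 and 32 in MPC-PTX (log2 fold change -7.54, edgeR adjusted p = 8.07e-06). The part of these markers in the members' values was not tested.

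Markers of other cell types were low or at 0, apart from Kit. Tryptases are abundant in mast cells, and 5 of 7 mast cell markers (Cpa3, Mcpt4, Cma1, Fcer1a and Ms4a2) had 0 counts in all libraries. The sum of all 7, 145 to 170 CPM in MPC and 172 to 179 CPM in MPC-PTX, was almost all Kit, a receptor that other cells also make. The 7 fibroblast markers summed to 9.83 to 10.9 CPM in MPC and 8.63 to 9.92 CPM in MPC-PTX, with 1 of 2 tested (Col1a1) lower and none at 0 in all libraries. The leukocyte markers summed to 11.2 to 12.7 CPM and 9.74 to 10.4 CPM. The 5 endothelial markers summed to 2.63 to 3.08 CPM and 2.21 to 2.79 CPM. The part of these lists in the result was not tested.

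The 5 tested genes whose log2 CPM followed Prss27 most closely over the 6 libraries were Spon2, Vta1, Vil1, Dqx1 and Rec8 (Pearson r 0.9994 to 0.9997). The 6 libraries form the 2 lines, so r describes mainly the step between the lines, and 253 tested genes (2.15%) had r above 0.99. The steps themselves were of very different size. Spon2, a secreted matrix protein, had 17.5 ± 1.88 CPM in MPC and 0.176 ± 0.0392 in MPC-PTX, and Vil1, the brush border protein villin, had 44.6 ± 9.01 and 0.381 ± 0.0799. Vta1 had 47.6 ± 0.589 and 32.2 ± 0.304 CPM. Among the members, r with Prss27 ran from 0.717 for Hpn to 0.998 for Tmprss2.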

How the data were processed

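RNA of MPC and MPC-PTX was measured in 3 poly-A selected libraries per line. Read filtering by the authors used fastp 0.22.0 and mapping HISAT2, and they deposited raw counts per gene, neither normalized nor pooled. The genome build, annotation, counting tool and use of strand are not given in the sources used here. Sample tables and the series table held the same values.

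From the counts, edgeR 4.0.16 (limma 3.58.1, R 4.3.3) with TMM scaling, filterByExpr (minimum count 10) and the quasi-likelihood test compared the lines over all 6 libraries, without a block; p-values were adjusted by Benjamini-Hochberg over 11795 genes and called below 0.05. DESeq2 1.42.0 was an alternative, as were other scalings and filters, a replicate block, GC and length offsets, and leaving out each library. CPM used TMM library sizes; log2 CPM for likeness used a prior count of 2. Lengths and positions came from GRCm38 (GENCODE M21), upstream sequences from RefSeq. 51 genes in the table had no name. Intervals cover counting error only.

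The members, lists and motifs were chosen with earlier results of these data known. Named were all members, listed genes called with a log2 fold change beyond 1 in size, the 5 genes most like Prss27 and its nearest tested neighbours; other genes were named after their values were seen.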

Additional observations from a re-analysis of the deposited data

How the results depend on the processing

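No member's fold change changed direction under any alternative. The count of 7 members called lower held under DESeq2, both other scalings, both other filters and the GC and length correction, and ran from 4 to 7 when 1 library was left out (4 without MPC-PTX replicate 2, and 5 without MPC replicate 2, MPC-PTX replicate 1 or MPC-PTX replicate 3). Over all genes, leaving out 1 library moved the count called higher between 803 and 3020 (1668 with all 6) and the count called lower between 1077 and 3227 (1841), the highest of each without MPC replicate 3. Beyond a log2 fold change of 1 these counts were 337 to 617 higher (417) and 454 to 541 lower (495). With at least 10 counts in every library, 11109 genes were tested, and 242 were higher and 332 lower beyond that size. Hpn could not be tested in that setting. The cause of the smaller counts was not tested. The log2 ratio differences ranged from -0.54 to -0.47 for St14 to Spint1 and from -0.37 to -0.21 for Prss8 to Spint2 when 1 library was left out.

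It was not settled whether the replicate numbers pair the libraries. Deviations of same-numbered libraries correlated at 0.15, -0.02 and 0.17, and those of other pairs at -0.23 to 0.15. Not every library correlated best with its own number. A replicate block gave 7 members lower, 1787 genes higher and 427 and 491 genes beyond a log2 fold change of 1, higher and lower.

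Among the genes that were not called, Met, Plaur, Prss32, Esrp2 and Cdh1 changed sign. The log2 fold change of Met became 0.0093 with total library size and 0.0002 with the replicate block, and ran from -0.18 to 0.12 when 1 library was left out (positive without MPC replicate 3). Over the same omissions that of Plaur ran from -0.31 to 0.0025 (without MPC replicates 3 and 1), that of Prss32 from -0.20 to 0.23 (negative without MPC replicate 3 or MPC-PTX replicate 2) and that of Esrp2 from -0.0595 to 0.0422 (negative without MPC replicate 3). For Cdh1 it became 0.0243 with total library size. For Esrp2 it became -0.0148 with DESeq2, -0.0151 with its size factors and -0.0129 with at least 10 counts in every library. The cause was not tested. Values of Hpn (2 to 16 counts in a library) and of Tmprss4 in MPC-PTX (14 to 17) rest on few reads.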
